A study of Mus musculus with 6 samples.

Results

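The COP9 signalosome is a protein complex that regulates cullin-RING ubiquitin ligases, and the transcripts of its 10 subunits (Gps1, Cops2, Cops3, Cops4, Cops5, Cops6, Cops7a, Cops7b, Cops8 and Cops9) were followed through an RNA immunoprecipitation (IP) of LIN28B. Members were taken by gene symbol from the 54752 genes of the deposited expression values, and all 10 were found. The complex was chosen by the IP/input ratio of Cops9, one of the highest ratios in these libraries, so the ratio of Cops9 is given as a description without a test. The values of its partners did not enter that choice.

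The study isolated RNA bound to FLAG-tagged LIN28B, an RNA-binding protein of fetal cells, from adult mouse bone marrow. Over 5 days of culture, doxycycline (Dox) and IL-7 at 20 ng/mL were supplied so that B cell progenitors expanded and the transgene was induced. 2 tet-LIN28B mice (Col1a tetO-LIN28B, Rosa26 rtTA*m2) carried the transgene, a human cDNA switched on by Dox through rtTA expressed from the Rosa26 locus, and 1 littermate control carried Rosa26 rtTA without it. All 3 cultures received IL-7 and Dox, and an input and an anti-FLAG IP library were made from each, giving 6 libraries. The sample labels give Dox at 0.1 mg/mL, while the methods of the study give the same number in micrograms per mL. The LIN28B studied was therefore an induced human protein in cultured cells, and the control IP measured what the antibody and beads recovered without a FLAG-tagged protein. The sources used here call the tet-LIN28B samples both biological and technical replicates. A p-value therefore covers only the spread between these 2 samples, which was estimated mainly from all genes together.

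All 10 markers of B cell progenitors were at 9.86 FPKM or more in every input, with summed levels between 6964 and 8198 FPKM. FPKM scales sequenced fragments to transcript length and to the depth of the library, so levels of different genes were compared per length. Markers of other cells were also present. The 6 myeloid markers summed to 672.2 and 444.1 FPKM in tet-LIN28B inputs and to 396.7 FPKM in the control input, nearly all of it Lyz2, and the 5 T and NK cell markers to 86.97, 30.48 and 33.1 FPKM. Their part in the results was not tested. Depth, estimated from the steps between low FPKM values, was 14.3 to 21.4 M fragments per library (M, mega).

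The COP9 signalosome removes the ubiquitin-like protein NEDD8 from cullins, the scaffolds of cullin-RING ubiquitin ligases. This lets the ligases disassemble and exchange their substrate receptors. In B lineage cells, as in other dividing cells, these ligases mark cell cycle regulators and signalling inhibitors for the proteasome. Cops5 is the metalloprotease that cuts NEDD8 off, and Cops6 is its inactive partner with the same fold. Gps1, Cops2, Cops3, Cops4, Cops7a, Cops7b and Cops8 carry PCI domains and build the scaffold, with Cops7a and Cops7b as alternative paralogs. Cops9 is a very short acidic protein that was recognised as a subunit after the others. The lid of the proteasome and the translation factor eIF3 are built from related PCI and MPN subunits, and the lid also holds a very short acidic subunit, Sem1.

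Cops9 lies on the minus strand of chromosome 1 of GRCm38, from 92637145 to 92641985 (ENSMUSG00000073616.10). Its principal transcript in GENCODE M21, Cops9-201, has 438 nt in 3 exons and encodes 57 residues. The principal transcripts of the other 9 subunits have 1646 to 5383 nt and encode 209 to 526 residues. The coding sequences of Cops9 and of Sem1 are shown because they encode the very short subunits of the COP9 signalosome and of the lid. The principal transcript of Sem1 is not short, at 1472 nt. Capitals mark GGAG, the motif that the zinc knuckles of LIN28 proteins recognise in let-7 precursors. Both were read from GRCm38, Cops9 from exons within chr1:92637366-92641942 and Sem1 from exons within chr6:6558449-6578554, each on the minus strand, 5′ to 3′ with the stop codon.
Cops9: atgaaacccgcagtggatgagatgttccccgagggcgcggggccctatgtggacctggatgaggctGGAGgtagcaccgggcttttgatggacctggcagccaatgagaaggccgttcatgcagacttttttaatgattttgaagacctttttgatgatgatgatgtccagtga
Sem1: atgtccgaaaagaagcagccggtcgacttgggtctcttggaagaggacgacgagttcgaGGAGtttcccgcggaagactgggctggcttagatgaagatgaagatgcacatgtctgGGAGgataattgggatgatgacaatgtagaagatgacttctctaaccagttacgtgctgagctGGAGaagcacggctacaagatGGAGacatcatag
GGAG was searched on the sense strand only, since the target is RNA. It occurs once in the coding sequence of Cops9, at position 67, and at 4 places in that of Sem1, at positions 60, 117, 180 and 201. Of 152 coding sequences within 20% of the length of that of Cops9, 70.4% hold GGAG, and of 336 near the length of that of Sem1, 77.1% do. Over whole transcripts, Cops9 has 4.57 GGAG per kb, against a median of 6.65 per kb over 21835 protein-coding genes. Among its partners Cops5 has the lowest density, at 2.36 per kb, and Cops6 the highest, at 10.07 per kb. A relation between the density of GGAG and the IP/input ratio was not tested. A match to 4 letters is a description of the sequence and not a binding site.

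Before the IP, Cops9 was by far the most abundant subunit transcript per length. Its input level was 1451.06 and 1649.17 FPKM with the transgene and 1511.11 FPKM without it. Ranks were taken among the 1460 genes that were never lower than 50 FPKM in a tet-LIN28B library, input or IP. By input level, Cops9 ranked between 180 and 199 of these in the 3 mice. It was 12.0-fold and 13.5-fold above the next subunit in the tet-LIN28B inputs and 11.5-fold above it in the control input. Without the correction for length the lead was much smaller. Estimated fragments in the tet-LIN28B inputs were 5815 and 5854 for Cops9, and 3631 and 3324 for Cops6, the next. In the control input they were 6409 for Cops9 and 4104 for Cops5, the next. The mean over the 3 inputs was 121.2 FPKM for Cops5 and 119.1 FPKM for Cops6, and their ranges overlapped. Cops3 followed at 74.9 FPKM and Cops4 at 56.8 FPKM. Gps1 (38.4 FPKM), Cops7a (36.2 FPKM) and Cops8 (34.1 FPKM) came next, and in this order the range of each overlapped that of the next. Cops2 averaged 28.5 FPKM and Cops7b 12.8 FPKM, so Cops7a was the more abundant paralog.

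Input levels of the subunits did not differ detectably between the genotypes. With limma, 0 of 10 subunits were called, as were 0% of the 11481 genes tested, and at an unadjusted p under 0.05 there were 0 of 10 subunits and 715 of all genes tested. The largest input difference, tet-LIN28B minus control, was -0.28 on the log2(FPKM + 1) scale for Gps1 (SE 0.16, adjusted p = 0.832). That of Cops9 was 0.03 (SE 0.20, adjusted p = 0.979). In bulk samples, fewer cells of a type and less RNA per cell cannot be told apart.

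**Figure D1:**
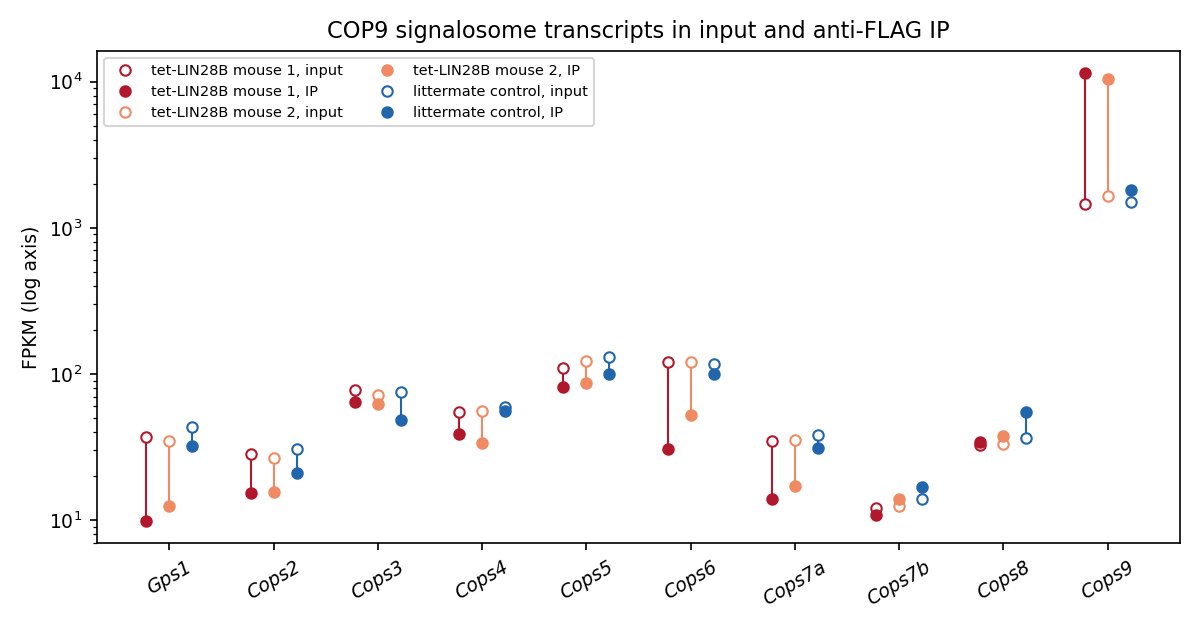
FPKM (log axis) of the 10 COP9 signalosome transcripts, with open circles for input and filled circles for the anti-FLAG IP of the same mouse, joined by a line, in 2 tet-LIN28B mice and 1 littermate control. Cops9 moved from 1451.06 to 11444.27 and from 1649.17 to 10357.75 FPKM in the tet-LIN28B mice, and from 1511.11 to 1818.85 FPKM in the control.

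In the IP of tet-LIN28B cells the level of Cops9 was several-fold above its input, while that of most of its partners was below theirs. Cops9 reached 11444.27 and 10357.75 FPKM in the tet-LIN28B IPs and 1818.85 FPKM in the control IP. Both tet-LIN28B IPs were far above all 4 other libraries, which lay close together. The IP/input ratio was 7.89 and 6.28 for tet-LIN28B, 7.08 ± 1.14 (SD, n = 2), and 1.20 for the control. Among the same 1460 genes, Cops9 was the 18th and 15th most abundant transcript of the tet-LIN28B IPs, and the 125th of the control IP. Estimated fragments assigned to Cops9 were 39624 and 46634 in the tet-LIN28B IPs and between 5428 and 6409 in the other libraries. These are estimates from amplified cDNA and not independent molecules.

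No other subunit transcript came near this ratio. The study kept genes with at least 50 FPKM in the 4 tet-LIN28B libraries, which holds for 1460 genes and for 3 of the 10 subunits, Cops3, Cops5 and Cops9. Among the 1460, Cops9 had the second highest average ratio, between Hnrnpm (7.12 ± 2.30), a splicing regulator, and Vav1 (5.77 ± 1.13), a signalling protein of the antigen receptor. The difference between Hnrnpm and Cops9 was smaller than the SD of either. Taken mouse by mouse, the ratio of Cops9 ranked 2 and 1 in tet-LIN28B cells and 294 in the control. Among all 11481 genes tested, its log2 ratio ranked 5 and 6 in tet-LIN28B cells and 3741 in the control.

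On the scale of log2((IP + 1)/(input + 1)), Cops9 stood at 2.98 and 2.65 in tet-LIN28B cells, against 0.27 in control cells. The next subunit was Cops8 in every mouse, and Cops9 exceeded it by 2.92 and 2.47 in the tet-LIN28B mice (mean 2.69, SD 0.32). In the control, Cops9 was instead 0.32 below Cops8 (a difference of -0.32). The ratio of Cops9 was thus 7.57-fold and 5.51-fold that of Cops8 in tet-LIN28B cells and 0.794-fold in the control. Because both transcripts come from the same library pair, this gap does not depend on how the libraries are scaled to each other.

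**Figure D2:**
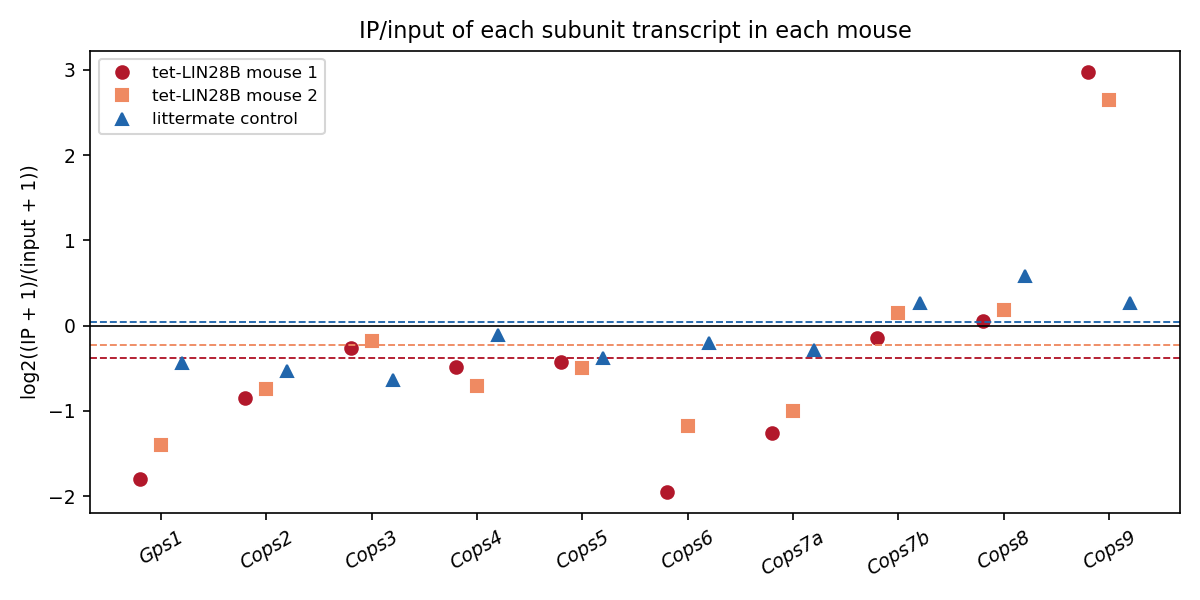
log2((IP + 1)/(input + 1)) of each COP9 signalosome transcript in each of the 3 mice, with dashed lines in the same colours at the median of the 11481 genes tested (-0.38 and -0.23 in the tet-LIN28B mice, 0.05 in the control). Cops9 stands at 2.98 and 2.65 in the tet-LIN28B mice, and the points of the other 9 subunits lie between -1.95 (Cops6, tet-LIN28B mouse 1) and 0.59 (Cops8, control).

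The composition of the pool of subunit transcripts shifted accordingly. Cops9 made up 74.0% and 76.3% of the summed FPKM of the complex in the tet-LIN28B inputs and 73.5% in the control input. In the IPs it made up 97.4% and 96.9% in tet-LIN28B cells and 79.8% in the control. The other 9 together went from 509.2 to 300.1 FPKM and from 511 to 331.8 FPKM in the tet-LIN28B mice, ratios of 0.589 and 0.649. In the control they went from 545.5 to 460.4 FPKM, a ratio of 0.844. These sums are values without a test.

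The ratios of all genes were not centred on 0. Over the 11481 genes with at least 1 FPKM in each input, the median log2 ratio was -0.38 and -0.23 in tet-LIN28B cells and 0.05 in the control, so a typical transcript was lower in the tet-LIN28B IP than in its input. The subunits were read against this shift. The median log2 ratio of the other 9 was -0.49 and -0.70 in tet-LIN28B cells and -0.29 in the control, and 6, 6 and 7 of them lay below the median of all genes in the same mouse. Of the other 9, 6 were called lower in the tet-LIN28B IP than in input by limma and 0 higher, where 40% of all genes tested were called lower and 18.1% higher. The median of their fitted log2 ratios was -0.60, beside -0.31 for all genes tested.

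The catalytic pair had different ratios, a difference between genes that was not tested. Cops5, the NEDD8 protease, was at 109.93 and 122.32 FPKM in tet-LIN28B inputs and at 81.7 and 86.26 FPKM in the IPs, with 131.41 and 100.54 FPKM in the control. Its ratios of 0.743 and 0.705 were close to the control ratio of 0.765, and although it was called lower in the IP (log2 -0.46, SE 0.18, adjusted p = 0.0441), its difference from the control was -0.08 (SE 0.31, adjusted p = 0.880). Cops6, its inactive partner, was at 121.05 and 119.86 FPKM in tet-LIN28B inputs and fell to 30.51 and 52.48 FPKM in the IPs, against 116.32 and 100.62 FPKM in the control. Both ratios, 0.252 and 0.438, lay well below the control ratio of 0.865, and on the log2 scale they were farther apart between the mice than those of any other subunit. Cops6 was lower in the IP (log2 -1.57, SE 0.21, adjusted p = 5.6e-05), and lower than the control by -1.36 (SE 0.37, adjusted p = 0.0194).

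Gps1, the largest subunit protein among the 10, had ratios close to those of Cops6. It was at 36.84 and 34.73 FPKM in tet-LIN28B inputs and fell to 9.86 and 12.56 FPKM in the IPs, against 43.58 and 31.92 FPKM in the control. Both tet-LIN28B ratios, 0.268 and 0.362, were below the control ratio of 0.732. The log2 ratio of -1.60 (SE 0.21, adjusted p = 3.6e-05) and the difference from the control of -1.16 (SE 0.36, adjusted p = 0.0332) were both called. Gps1 shares 40.3% of its 50-nt stretches with the processed pseudogene Gm9816, which was at 0.14 FPKM at most, so its reads could be split, although few were assigned to the copy.

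Gps1 and Cops6 were the 2 of the other 9 subunits called lower than the control, 0 were called higher, and 19.8% of all genes tested were called lower and 4.47% higher. Neither remained called once each mouse was centred on its median over all genes: the difference was then -0.81 for Gps1 (adjusted p = 0.118) and -1.003 for Cops6 (adjusted p = 0.0881). Both calls were also lost with a pseudocount of 0.1 (adjusted p = 0.064 and 0.0617).

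Among the other scaffold subunits, Cops7a had the lowest tet-LIN28B ratios. It went from 34.97 to 13.99 FPKM and from 35.31 to 17.18 FPKM in tet-LIN28B cells and from 38.29 to 31.14 FPKM in the control, ratios of 0.400, 0.487 and 0.813. The tet-LIN28B ratio was called (log2 -1.13, SE 0.20, adjusted p = 0.000404), and the difference from the control was not (-0.84, SE 0.35, adjusted p = 0.0975). Its paralog Cops7b was at 12.14 and 12.42 FPKM in tet-LIN28B inputs, at 10.87 and 13.83 FPKM in the IPs, and at 13.83 and 16.84 FPKM in the control. One tet-LIN28B ratio of Cops7b was below 1 (0.895) and the other above it (1.11), with a control ratio of 1.22. The paralogs therefore had separate tet-LIN28B ratios, and also separate control ratios, in the same direction. The difference between the paralogs was not tested.

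Cops2, which docks the complex onto cullins, went from 28.46 to 15.35 FPKM and from 26.5 to 15.46 FPKM in tet-LIN28B cells and from 30.51 to 20.85 FPKM in the control. Its ratios of 0.539 and 0.583 were called (log2 -0.80, SE 0.20, adjusted p = 0.00458), but the control ratio was also low at 0.683, and the difference was -0.27 (SE 0.35, adjusted p = 0.617). Cops4 went from 55.07 to 38.92 FPKM and from 55.5 to 33.71 FPKM, and in the control from 59.76 to 55.56 FPKM. Its ratios were 0.707 and 0.607 against 0.930, and it was lower in the IP (log2 -0.60, SE 0.19, adjusted p = 0.0168) without a called difference from the control (-0.49, SE 0.33, adjusted p = 0.299). The calls of Cops4 and Cops5 against input were lost after centring on the median, with log2 ratios of -0.29 (adjusted p = 0.206) and -0.16 (adjusted p = 0.474), and also on the scale of TPM.

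Cops3 and Cops8 were not called in either comparison. Cops3 went from 77.83 to 64.67 FPKM and from 71.2 to 62.51 FPKM in tet-LIN28B cells and from 75.6 to 48.09 FPKM in the control. It was the only one of the other 9 with both tet-LIN28B ratios (0.831 and 0.878) above the control ratio (0.636), and the difference was 0.42 (SE 0.32, adjusted p = 0.368). Cops8, a small PCI subunit, went from 32.86 to 34.24 FPKM and from 33.16 to 37.8 FPKM, and from 36.18 to 54.88 FPKM in the control. Its ratio was above 1 in all 3 mice and highest in the control (1.52), so that its difference from the control was -0.47 (SE 0.33, adjusted p = 0.332).

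Ordered by average tet-LIN28B ratio, Cops9 (7.08) was followed by Cops8 (1.09), Cops7b (1.00), Cops3 (0.854), Cops5 (0.724), Cops4 (0.657), Cops2 (0.561), Cops7a (0.443), Cops6 (0.345) and Gps1 (0.315). Ranges over both mice overlapped for the neighbours Cops8 and Cops7b, Cops5 and Cops4, Cops7a and Cops6, and Cops6 and Gps1. Both tet-LIN28B ratios were below the control ratio for 8 of the other 9 and above it for 1, beside 61.5% and 24.7% of all genes tested. After centring on the median these were 4 below (Gps1, Cops6, Cops7a and Cops8) and 4 above (Cops2, Cops3, Cops5 and Cops7b), beside 44.5% and 40.5% of all genes. The share of the other 9 below the control therefore moved with the scaling, whereas Cops9 was above the control in both mice on every scale tried.

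**Figure D3:**
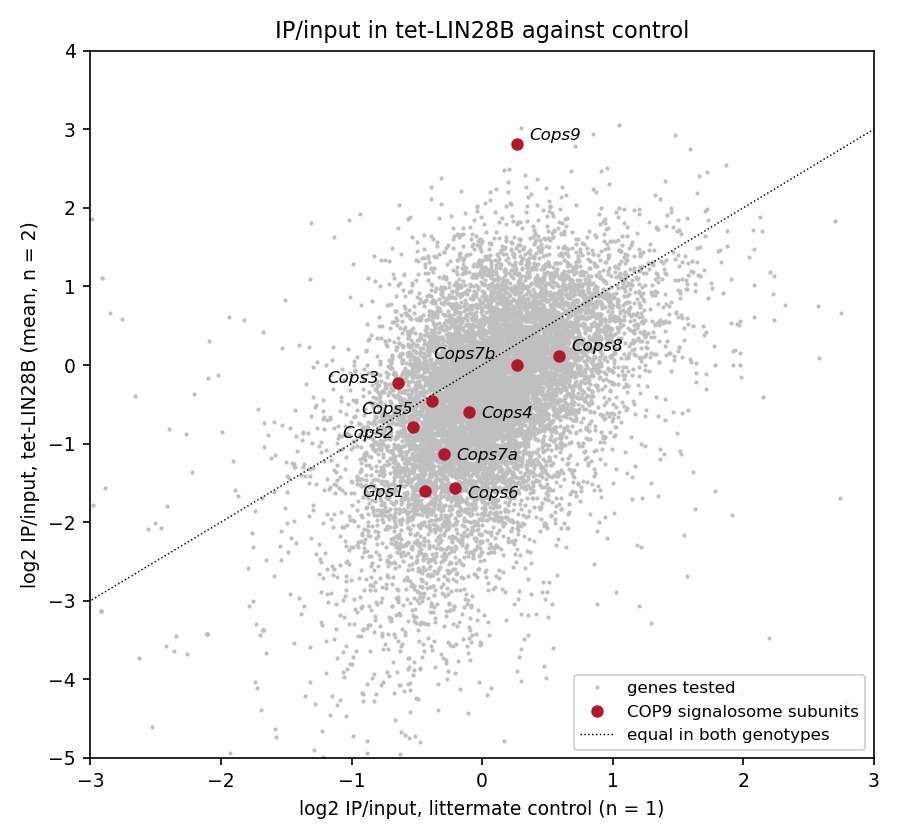
Mean log2 IP/input of the 2 tet-LIN28B mice against log2 IP/input of the littermate control for the 11481 genes tested (grey, 50 outside the axes), with the 10 COP9 signalosome transcripts in red and a dotted line where both genotypes are equal. Cops9 lies at 2.81 on the vertical and 0.27 on the horizontal axis, and 8 of the other 9 lie below the dotted line. Once each mouse was centred on its median (not shown), 4 of the other 9 had both tet-LIN28B mice below the control.

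The excess of Cops9 was seen in other units as well. On the scale of TPM its ratios were 8.26 and 6.95 in tet-LIN28B cells and 1.46 in the control. In estimated fragments relative to depth, which leave out the correction for transcript length, they were 9.03, 8.18 and 1.26. Cops9 shares no 50-nt stretch with another annotated gene and overlaps no exon of another gene. Exons of Cops2, Cops3, Cops5 and Cops6 overlap genes on the opposite strand, and the library kit does not mark strand. For Cops5 this is 182 nt shared with Cspp1 (43.82 to 109.47 FPKM over the libraries) and for Cops6 it is 64 nt shared with Mcm7 (42.25 to 82.35 FPKM), so part of their reads may come from those genes.

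Among the 1460 genes at 50 FPKM or more, the 5 with log2 ratios closest to those of Cops9 over the 3 mice were Vav1 (Euclidean distance 0.453), Rpl36a (0.478), Hnrnpm (0.507), Hsp90aa1 (0.568) and Rpl5 (0.788). Their tet-LIN28B ratios ran from 4.56 (Hsp90aa1) to 8.75 (Hnrnpm) and their control ratios from 1.12 (Rpl36a) to 1.64 (Hnrnpm). Rpl36a and Rpl5 encode proteins of the large ribosomal subunit, and Hsp90aa1 encodes a cytosolic chaperone. Their proteins have 106 to 845 residues, all longer than that of Cops9.

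Transcripts of other short proteins spanned a wide range of ratios. Of 266 tested genes whose proteins have at most 100 residues, 43 were called higher in the tet-LIN28B IP and 150 lower, beside 18.1% higher and 40% lower of all genes tested, with a median log2 ratio of -0.78 beside -0.31 for all genes. Of the 140 of these at 50 FPKM or more, 17 had an average ratio above 2, beside 238 of all 1460 genes at that level. Cops9 ranked first among the 140, followed by Lsm6 (4.26 ± 0.0679), part of a ring that binds U6 RNA and decaying mRNA, and by Cox17 (3.93 ± 0.754), a copper chaperone of cytochrome oxidase. The control ratios were 1.43 for Lsm6 and 0.974 for Cox17. At the other end stood Ost4, a subunit of oligosaccharyltransferase, at 0.0679, and mt-Atp8, an ATP synthase subunit encoded in mitochondria, at 0.0135.

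The pathway on which the COP9 signalosome acts was described by 37 genes for NEDD8 conjugation, NEDD8 removal and exchange, cullins, adaptors and substrate receptors, of which 34 were tested. Against input, 7 were higher and 8 lower, beside 18.1% and 40% of all genes tested, with a median log2 ratio of -0.07 beside -0.31 for all genes. Against the control, 1 was higher and 2 were lower, beside 4.47% and 19.8% of all genes. Lower calls were thus fewer per gene tested than among all genes, and higher calls about as frequent. That difference was not tested.

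Nedd8 itself, the modifier that Cops5 removes, was at 1026.29 and 1375.34 FPKM in tet-LIN28B inputs, with ratios of 0.859 and 0.689 against 0.713 in the control, and was not called (log2 -0.38, SE 0.20, adjusted p = 0.117). Of the 11 tested genes for NEDD8 conjugation, 1 rose against input (Nae1) and 3 fell (Ube2m, Uba3 and Ube2f), beside 18.1% and 40% of all genes tested. Nae1, a subunit of the NEDD8-activating enzyme, went from 29.55 to 62.64 FPKM and from 28.19 to 53.53 FPKM in tet-LIN28B cells and from 25.28 to 19.57 FPKM in the control. Both tet-LIN28B ratios (2.12 and 1.90) were above the control ratio of 0.774, with a difference of 1.33 (SE 0.34, adjusted p = 0.0133). Its partner in that enzyme, Uba3, fell in the IP (log2 -0.76, SE 0.22, adjusted p = 0.00951), with tet-LIN28B ratios of 0.586 and 0.544 close to the control ratio of 0.621. Ube2m, the NEDD8-conjugating enzyme, had ratios of 0.316, 0.488 and 0.654 (log2 against input -1.33, adjusted p = 0.000129), and Rnf7, the RING protein paired with Cul5, had ratios of 1.36, 1.21 and 1.30.

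The genes for NEDD8 removal and exchange were not called in either comparison. Senp8, a protease that matures NEDD8, had ratios of 0.644 and 0.658 against 0.725 in the control. Cand1, which exchanges the receptors of cullins freed from NEDD8, had ratios of 1.12 and 1.08 against 1.06.

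Of the 7 cullins tested, 1 rose and 1 fell against input, beside 18.1% and 40% of all genes tested, and 0 were called against the control. Cul5 had tet-LIN28B ratios of 2.53 and 2.69 and a control ratio of 1.35, so both mice lay above the control, but the difference of 0.90 (SE 0.36) had an adjusted p of 0.0904. Cul3 had ratios of 0.336 and 0.738 on either side of the control ratio of 0.561. Cul2 (1.13 and 1.05 against 0.816) and Cul4a (0.901 and 0.860 against 0.785) were not called.

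Elob and Dda1 were the 2 adaptors of 5 that fell, both against input, where 40% of all genes tested fell, and against the control, where 19.8% did. Elob, which pairs with Eloc as the elongin adaptor of Cul2 and Cul5, went from 1297.14 to 206.76 FPKM and from 1426.99 to 345.72 FPKM in tet-LIN28B cells and from 1610.72 to 1037.48 FPKM in the control. Its ratios were 0.159, 0.242 and 0.644, and the difference was -1.71 (SE 0.36, adjusted p = 0.00502). At 537 nt its principal transcript is short and, like that of Cops9, abundant in the inputs, and its ratios lay below 1. A relation of transcript length or input level to the ratio was not tested. Dda1, which joins Ddb1 in Cul4 ligases, had ratios of 0.275, 0.454 and 0.994 and a difference of -1.44 (SE 0.37, adjusted p = 0.0147), a call lost after centring on the median (adjusted p = 0.0634). Skp1a (1.284 and 1.258 against 0.834) and Ddb1 (1.13 and 1.30 against 1.31) were not called.

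Among 9 substrate receptors, 5 rose and 2 fell against input (18.1% and 40% of all genes tested), 0 were called against the control (4.47% higher and 19.8% lower of all genes), and their median log2 ratio in the control was 0.66. Vhl, the receptor for hypoxia-inducible factors, had ratios of 3.03 and 5.67 with a control ratio of 2.84. Keap1, the receptor for the oxidative stress factor NRF2, had ratios of 3.05 and 4.80 with a control ratio of 1.98, and a difference of 0.93 (SE 0.37, adjusted p = 0.0919). The receptors that fell were Crbn (0.616 and 0.647 against 0.832) and Ddb2 (0.303 and 0.464 against 0.644).

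**Figure D4:**
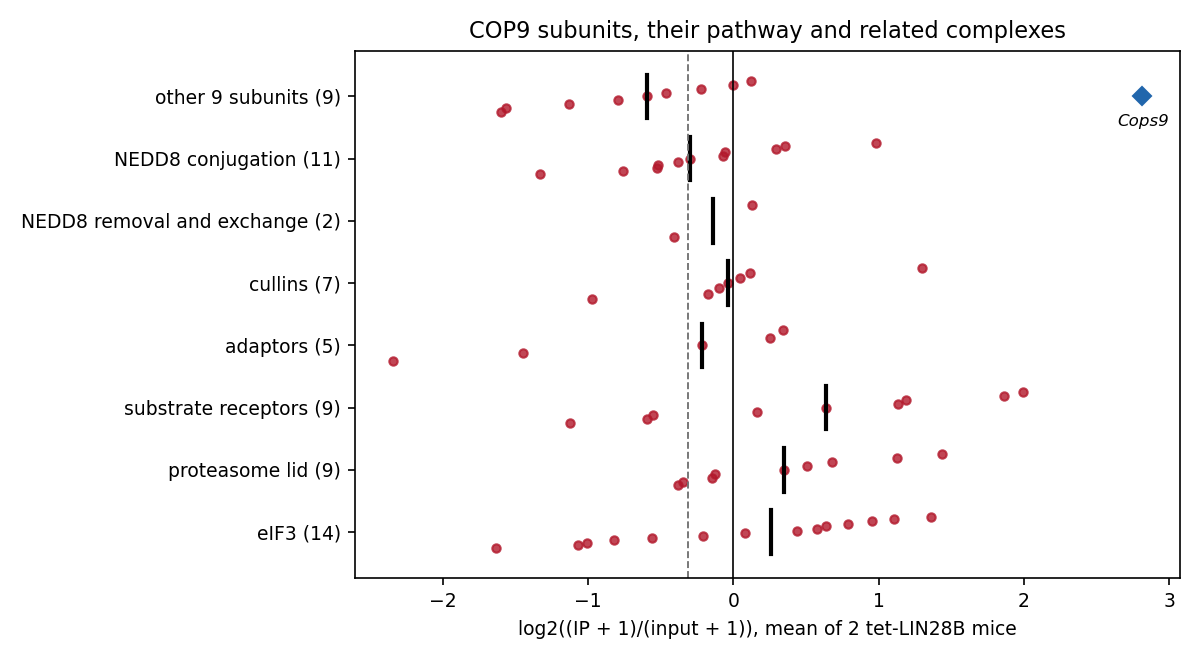
Mean log2((IP + 1)/(input + 1)) of the 2 tet-LIN28B mice for each tested gene (red points) of the other 9 COP9 subunits, the 5 groups of NEDD8 and cullin-RING ligase genes, the proteasome lid and eIF3, with the number of genes in brackets, black bars at the medians, a dashed line at the median of all genes tested (-0.31) and a blue diamond for Cops9. The median of the other 9 subunits is -0.60, that of the lid 0.35 and that of eIF3 0.26.

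Both related complexes had medians above that of the COP9 partners, a difference that was not tested. All 9 lid subunits were tested, and 4 rose and 0 fell against input (18.1% and 40% of all genes tested), with a median log2 ratio of 0.35. Against the control, 3 were higher and 0 lower (4.47% and 19.8% of all genes). Sem1, the short lid subunit whose coding sequence is given above, went from 478.19 to 1093.74 FPKM and from 530.04 to 1102.29 FPKM in tet-LIN28B cells and from 499.2 to 473.98 FPKM in the control. Its ratios of 2.29 and 2.08 lay above the control ratio of 0.950, with a difference of 1.20 (SE 0.32, adjusted p = 0.0189). Its average ratio, 2.18 ± 0.147, was below that of Cops9 by more than the spread of both. Psmd13, a PCI subunit of the lid, had ratios of 3.01, 2.48 and 1.38 (difference 0.98, SE 0.32, adjusted p = 0.0430, and 0.0912 on the TPM scale). Its tet-LIN28B ratios were above those of Sem1, but so was its control ratio. By the difference from the control, Sem1 (1.20) was above Psmd13 (0.98). The order of these lid transcripts thus depended on the measure, and it was not tested. Psmd8 and Psmd6 had the lowest ratios of the lid, between 0.688 and 0.847, near their control ratios of 0.774 and 0.763.

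Of the 14 genes listed for eIF3, with Eif3j1 and Eif3j2 counted separately, 6 rose and 5 fell against input. Of all genes tested, 18.1% and 40% did. Against the control, 2 were higher and 1 lower, beside 4.47% and 19.8% of all genes. Sequence shared between Eif3j1 and Eif3j2 was not checked. Eif3c, a core PCI subunit, had ratios of 2.55, 2.60 and 1.24 (difference 1.05, SE 0.31, adjusted p = 0.0291, and 0.0593 on the TPM scale), and Eif3j1, a loosely attached subunit, had ratios of 2.696, 1.806 and 1.128. Eif3g, an RNA-binding subunit, had ratios of 0.267, 0.376 and 0.932 (difference -1.53, SE 0.34, adjusted p = 0.00658), and Eif3i had ratios of 0.434, 0.516 and 0.768. In each of the 3 complexes, transcripts of subunits of the same particle thus lay on both sides of 0, and in none of the lid or eIF3 subunits did the mean log2 ratio reach that of Cops9 (2.81), the highest being 1.44 and 1.36.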

How the data were processed

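FPKM values of 6 libraries were deposited by the authors, who made the cDNA with SMART-Seq v4, used STAR 2.7.1 (mm10) for alignment and RSEM 1.28 for quantification, according to the labels and the submitters' processing notes. Which annotation release they used is not stated there. Fraction, genotype and mouse were taken from sample titles, with which the column names agree, while a line of each description names the opposite fraction. No pair of libraries held identical values (0 pairs).

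The members, gene lists and tests were chosen with earlier results of these data known. Genes with at least 1 FPKM in each input were tested (11481). Per mouse, log2((IP + 1)/(input + 1)) entered a limma 3.58.1 fit in R 4.3.3, with genotype as the factor and a trend on mean expression. The tet-LIN28B mean was tested against 0 and against the control, two-sided, with Benjamini-Hochberg adjustment over all genes tested and a threshold of 0.05. A fold on this scale understates changes of low genes. With 1 residual degree of freedom, the spread came mainly from all genes together (prior degrees of freedom 11.4), and the single control had to be given the same spread as the transgenic mice. Inputs were fitted on log2(FPKM + 1). Averages of plain FPKM ratios follow the study. Taking the ratio makes the mouse a block, since input and IP come from the same animal; between both tet-LIN28B mice, differences in input and IP correlated at 0.275.

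Depth was estimated from whole-fragment steps of low FPKM values of single-transcript genes (84.0% to 91.1% within 0.15 of a whole fragment, 30% by even spread) and covers counting error only. On simulated data for 11481 genes with 200 changed, a log2 change of 2 was recovered in 100% against input and 85% against the control with the spread as fitted, and in 76% and 0% with a spread differing between genes. A log2 change of 1 was recovered in 71.5% against input and 8.5% against the control with the spread as fitted. With a spread differing between genes it was recovered in 0% of both. A difference from the control of that size that was not called may therefore still be present. For the inputs, 94% of changes of 1 were recovered, with the spread as fitted. That run also called 83 unchanged genes, and a run with changes of 3 called 10. Against input, with the spread as fitted, 37 unchanged genes were called beside changes of 2 and 8 beside changes of 1. Against the control these were 8 and 6. With a spread differing between genes, 10 were called against input beside changes of 2, and 0 in its other runs. Beside 200 changed genes, 83 and 37 were more than the adjusted p threshold allows, so calls may hold more false ones.

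Positions and lengths are from GENCODE M21 (53981 of 54752 genes matched), sequences from GRCm38. Named were all subunits, the neighbours of Cops9 in rank, the 5 genes nearest to it, Sem1, and the 2 highest and 2 lowest of each list and of short proteins. Nedd8, Ube2f, Psmd14 and Eif3m, as well as genes that share sequence or overlap with a member, were named in addition, after their values were seen. Alternatives changed the filter, pseudocount, scaling, average, trend and block, and left out each tet-LIN28B mouse.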

Additional observations from a re-analysis of the deposited data

Results flagged for a closer look

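The IP/input ratio differed between the tet-LIN28B mice and the littermate control for 2 subunits of the complex and for 9 genes of its pathway and of the related complexes, by limma with an adjusted p under 0.05. Of all genes tested, 4.47% were called higher and 19.8% lower in this comparison, so calls were common. On the log2 scale, tet-LIN28B minus control, the differences were -1.16 for Gps1 and -1.36 for Cops6 among the subunits. In the NEDD8 and cullin-RING ligase genes they were 1.33 for Nae1, -1.44 for Dda1 and -1.71 for Elob. In the proteasome lid they were 0.98 for Psmd13 and 1.20 for Sem1, and in eIF3 1.05 for Eif3c and -1.53 for Eif3g. Psmd14 of the lid (1.04, adjusted p = 0.0325) and Eif3m of eIF3 (0.96, adjusted p = 0.0433) were called as well, and were named after their values were seen. In each of these 11 genes both tet-LIN28B mice lay on the same side of the control, which is 1 mouse. The call itself makes this likely, so it adds no support. Of all genes tested, both mice lay above the control in 24.7% and below it in 61.5%.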

How the results depend on the processing

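No called value changed sign under the alternatives run. The 6 subunits other than Cops9 called lower against input were 4 to 6 under the other settings. They were 1 under the filter of 50 FPKM, where of the other 9 only Cops3 and Cops5 were tested. The 2 called lower than the control, Gps1 and Cops6, were not tested under that filter. They were 0 with all genes above 0, with a pseudocount of 0.1 and after centring on the median. With no replicate block they were also 0 (limma, Gps1 adjusted p = 0.0842, Cops6 adjusted p = 0.123), and otherwise 2. For the pathway genes, higher calls against input (7) were 0 under the 50 FPKM filter and 11 after centring, and lower calls (8) were 2 and 5. That filter left only 9 of the 34 pathway genes to test, so fewer calls there partly reflect fewer genes. Against the control, the gene of the 1 higher call, Nae1, was not tested under the 50 FPKM filter. Higher calls were 0 with no replicate block, 2 with a pseudocount of 5 and 3 after centring. The 2 lower calls became 1 under the 50 FPKM filter, where Dda1 was not tested. They became 1 with a pseudocount of 0.1 and after centring, and 0 with no replicate block. The 2 subunits and the 9 genes of the pathway and the related complexes that differed from the control all lost that call without the replicate block (for Psmd14 adjusted p = 0.0858, for Eif3m 0.128). The average ratio of Cops9 was 8.82 after centring and 8.61 in estimated fragments relative to depth, an alternative chosen after seeing the data, and 6.28 to 7.89 with either tet-LIN28B mouse left out. Its log2 excess over the next subunit was then 2.47 to 2.92. The median log2 ratio of the other 9 was -0.29 after centring and -0.70 to -0.49 with either mouse left out. Their median difference from the control, -0.47, was -0.48 with a pseudocount of 0.1, -0.43 with one of 5, -0.63 on the TPM scale, -0.11 after centring, and -0.41 to -0.40 with either mouse left out. Tests without a mouse were not possible, since no residual degree of freedom remains. Over all genes, calls against input were 2076 higher and 4598 lower, and 3257 and 3436 after centring. Calls against the control were 513 and 2269 (18.4% higher), 793 and 1222 after centring (39.4%), 339 and 324 under the 50 FPKM filter, and 85 and 567 with no replicate block. On the TPM scale the median log2 ratios of all genes were -0.31, -0.10 and 0.28.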
